A study of Mus musculus with 24 samples.

Results

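Acetylation of histone H3 at lysine 27 (H3K27ac), a chromatin mark of active promoters and enhancers, was examined at 7 genes of cholesterol metabolism in livers of male and female mice. The genes were Hmgcs1, Idi1, Sqle, Lss and Cyp51, which encode enzymes of cholesterol synthesis, and Srebf2 and Insig1, which encode regulators of that pathway. They were chosen by name, and every peak overlapping the gene body or the 10 kb on either side was assigned to the gene. The set was assembled as cholesterol synthesis and uptake genes, but none of the 7 encodes a receptor or transporter of cholesterol. Of the 7 genes, 6 had a place in the mm9 annotation, and their windows held 40 of the 119348 H3K27ac regions of the series. Hmgcs1 could not be measured: the 300 bases around its start matched in full at 2 places of the mm9 assembly, both on unplaced contigs, and the lists held 0 peaks on unplaced contigs.

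The livers came from mice of the inbred strains C57BL/6J, here B6, and CAST/EiJ, here CAST, which belong to different mouse subspecies, with no transgene or treatment named in the sample labels. The 4 groups were B6 males, B6 females, CAST males and CAST females, each of 5 livers, with mice given as 8 weeks old and 1 input control per group. The 5 livers of a group were combined by the authors before peaks were called, so each group is 1 peak list and no value below has a spread between livers or a test. Sex and strain were taken from the sample titles, because a separate strain field assigns every female to CAST and every male to B6, at odds with the titles of the B6 females and the CAST males. The titles are followed by the list names and by the methods of the study.

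Cholesterol is built from acetyl-CoA through mevalonate, isoprenoid units, squalene and lanosterol. Hmgcs1 makes HMG-CoA early in the pathway, Idi1 interconverts the activated isoprene units, Sqle oxidises squalene, Lss closes the ring system to give lanosterol, and Cyp51 removes a methyl group from lanosterol. The transcription factor SREBP-2, the product of Srebf2, activates genes of this pathway when sterols are low, and INSIG1 holds the SREBP precursor in the endoplasmic reticulum when sterols are high. The liver is a main site of this synthesis and of its feedback control.

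The promoters are shown because each of the 6 measurable members carried H3K27ac there in all 4 lists. Each is the stretch from 250 bases before to 50 bases into the transcript, written 5′ to 3′ on the strand of the gene. Capitals mark matches, on either strand, to CACNCCAC (the core of the sterol regulatory element bound by SREBPs), CCAAT (the box bound by NF-Y), GGGCGG (the GC box bound by Sp1) and CACGTG (the E-box). The sequence of Hmgcs1 is from RefSeq on GRCm38.p6, and the others were read from mm9.
Hmgcs1, GRCm38.p6 chr13:119690101-119690400, plus strand: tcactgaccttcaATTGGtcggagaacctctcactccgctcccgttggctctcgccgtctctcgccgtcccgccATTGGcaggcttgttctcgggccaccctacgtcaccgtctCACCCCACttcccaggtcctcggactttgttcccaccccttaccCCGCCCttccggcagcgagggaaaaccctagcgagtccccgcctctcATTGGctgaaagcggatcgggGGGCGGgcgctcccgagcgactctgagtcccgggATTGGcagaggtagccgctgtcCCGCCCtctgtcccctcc
Idi1, mm9 chr13:8884602-8884901, plus strand: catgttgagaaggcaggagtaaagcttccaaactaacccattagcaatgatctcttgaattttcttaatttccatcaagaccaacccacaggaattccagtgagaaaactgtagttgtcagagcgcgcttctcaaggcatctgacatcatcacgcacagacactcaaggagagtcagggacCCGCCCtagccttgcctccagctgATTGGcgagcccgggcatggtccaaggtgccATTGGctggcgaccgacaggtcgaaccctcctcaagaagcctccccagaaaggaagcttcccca
Sqle, mm9 chr15:59146386-59146685, plus strand: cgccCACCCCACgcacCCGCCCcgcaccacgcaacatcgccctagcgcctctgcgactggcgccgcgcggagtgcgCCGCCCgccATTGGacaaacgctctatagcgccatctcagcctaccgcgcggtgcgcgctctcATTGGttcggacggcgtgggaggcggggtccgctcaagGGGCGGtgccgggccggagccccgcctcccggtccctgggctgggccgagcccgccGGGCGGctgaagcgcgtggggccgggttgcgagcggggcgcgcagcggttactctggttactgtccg
Lss, mm9 chr10:75994102-75994401, plus strand: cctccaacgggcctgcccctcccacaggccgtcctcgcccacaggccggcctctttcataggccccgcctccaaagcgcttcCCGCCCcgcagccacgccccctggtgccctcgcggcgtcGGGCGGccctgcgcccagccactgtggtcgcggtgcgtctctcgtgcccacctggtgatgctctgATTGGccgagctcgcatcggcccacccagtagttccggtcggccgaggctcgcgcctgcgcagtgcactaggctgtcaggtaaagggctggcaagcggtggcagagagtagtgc
Cyp51, mm9 chr5:4104697-4104996, minus strand: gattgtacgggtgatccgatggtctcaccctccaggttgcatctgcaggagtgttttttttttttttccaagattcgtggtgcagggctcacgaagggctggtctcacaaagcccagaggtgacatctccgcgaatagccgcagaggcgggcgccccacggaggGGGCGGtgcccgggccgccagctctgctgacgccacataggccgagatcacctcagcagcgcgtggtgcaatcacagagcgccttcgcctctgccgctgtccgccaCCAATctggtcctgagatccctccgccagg
Srebf2, mm9 chr15:81977446-81977745, plus strand: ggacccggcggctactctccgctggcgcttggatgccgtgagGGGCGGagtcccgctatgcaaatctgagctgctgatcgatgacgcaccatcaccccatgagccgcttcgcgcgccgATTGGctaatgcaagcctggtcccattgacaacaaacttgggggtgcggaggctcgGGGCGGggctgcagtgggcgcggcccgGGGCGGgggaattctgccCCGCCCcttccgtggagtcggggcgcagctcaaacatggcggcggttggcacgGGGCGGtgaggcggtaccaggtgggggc
Insig1, mm9 chr5:28397702-28398001, plus strand: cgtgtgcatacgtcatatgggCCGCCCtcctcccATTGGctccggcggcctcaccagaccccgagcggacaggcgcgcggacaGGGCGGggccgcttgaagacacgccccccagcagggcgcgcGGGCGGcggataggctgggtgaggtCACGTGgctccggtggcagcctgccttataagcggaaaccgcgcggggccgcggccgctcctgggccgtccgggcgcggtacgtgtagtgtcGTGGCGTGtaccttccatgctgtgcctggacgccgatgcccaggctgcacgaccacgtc
CCAAT was found in 7 of 7 promoters, against 37.9% of 22337 protein-coding promoters of the same length, and GGGCGG was found in 7 of 7, against 44.0%. CACNCCAC was found in 3 of 7 (Hmgcs1, Sqle and Insig1), against 6.15%, and the longer form TCACNCCAC, which contains it, in 1 of 7 (Hmgcs1), against 1.20%. CACGTG was found in 1 of 7 (Insig1), against 7.79%. With the transcript start as position 0, the Hmgcs1 match to TCACNCCAC lay at bases -137 to -129, the CACNCCAC match of Sqle at -246 to -239 and that of Insig1 at -9 to -2. A match describes these letters only, and the absence of one says nothing about a factor outside the window. The GC content ran from 52.3% at Idi1, which had 9 CpG dinucleotides, to 75.0% at Sqle, which had 45.

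H3K27ac was present at the promoters of all 6 measurable members in all 4 lists. A promoter region is defined here as lying within 2.5 kb of an annotated transcript start. Peaks of the 4 lists that overlapped by at least 1 bp were merged into union regions, and a region was called in a list that held a peak in it. Of the 40 regions, 11 lay at a member's own promoter, 28 were distal to any start and 1, inside Srebf2, lay at the start of the microRNA gene Mir33. The members' peaks covered 27256 bp in the B6 male list, 26371 bp in the B6 female list, 28369 bp in the CAST male list and 23231 bp in the CAST female list, in 30, 28, 34 and 27 peaks. Own promoters held 47.9%, 52.4%, 46.1% and 49.9% of these bases in that order. In the whole lists the peaks covered from 65.3 to 72.8 Mb, with median widths from 578 to 680 bp, and sequencing depth, which the lists do not hold, was not used here.

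**Figure D1:**
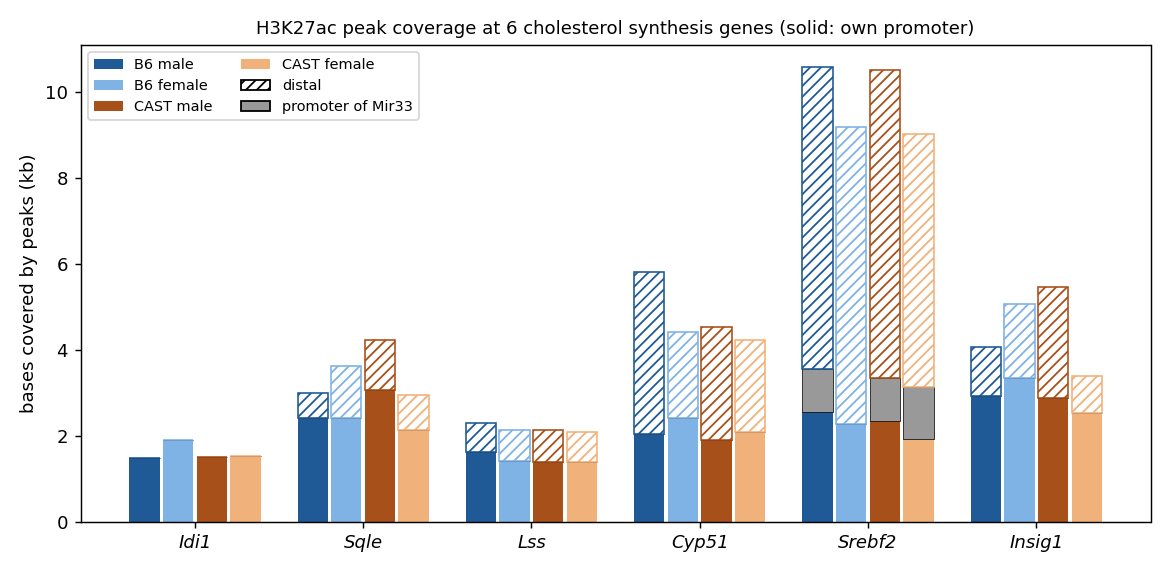
Bases covered by H3K27ac peaks (y axis, kb) in the window of each of 6 genes (x axis), 1 bar per list. Solid parts are the gene's own promoter, hatched parts are distal regions and grey is the Mir33 start inside Srebf2; Srebf2 has the tallest bars, from 9030 to 10584 bp, and Idi1 the shortest, from 1491 to 1912 bp, with no distal part.

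Regions at the members were called in all 4 lists in 19 of 40 cases (47.5%, 95% Wilson interval 32.9 to 62.5), against 40.4% of all regions. Own promoters made up 9 of these 19. Among own promoter regions, 9 of 11 (81.8%) were in all lists, against 63.0% of the 28732 regions near any start, and among distal regions 10 of 28 (35.7%), against 33.3% of 90616. A further 10 of the 40 regions (25.0%, 14.2 to 40.2) were called in 1 list only, against 32.4% of all regions. The regions seen in 1 list had a highest fold enrichment over background between 1.64 and 2.21 and widths from 261 to 743 bp, with a median of 361 bp. The widest, upstream of Insig1 in B6 females, stood at the 62.6th percentile of its list when peaks were ranked by their deposited score. Regions in all 4 lists ranged from 1.91-fold to 10.4-fold, with a median width of 1164 bp. The intervals cover counting error only, and regions of 1 gene share its locus.

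**Figure D2:**
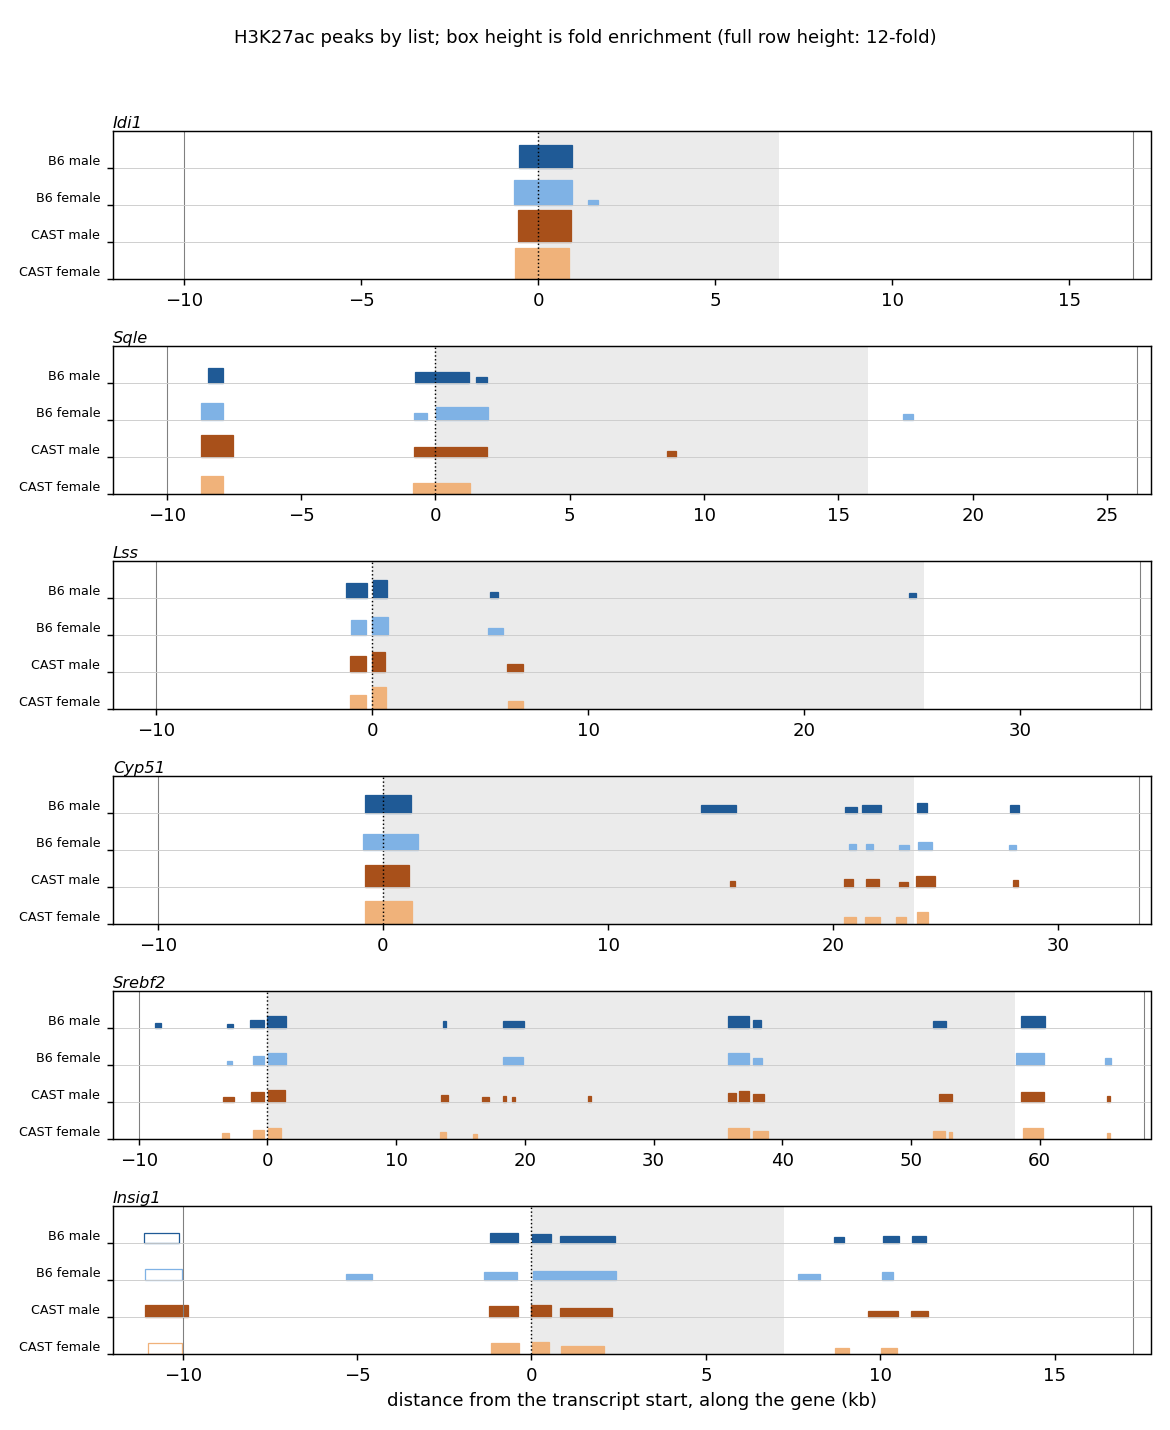
Peaks of each list (rows) along the 6 genes, with distance from the transcript start in kb on the x axis and box height giving fold enrichment over background on a linear scale. The shaded span is the gene body, the dotted line the start, the grey lines the window edges, and open boxes are peaks that fall short of the window; the open boxes occur only at Insig1.

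Idi1, which interconverts the activated isoprene units, carried the strongest promoter signal of the members and no distal region. A single region spanned its start (chr13:8884171-8885821), covering coding sequence of the gene. Its highest fold enrichment was 7.58 for B6 males, 8.07 for B6 females, 10.4 for CAST males and 10.2 for CAST females. Both CAST lists were above both B6 lists, and the sexes of a strain were close together. Among genes with a promoter peak the Idi1 value stood at the 86.4th percentile of the B6 male list, the 89.8th of the B6 female list, the 97.0th of the CAST male list and the 98.4th of the CAST female list. Covered bases did not follow the fold: 1491 bp for B6 males, 1912 bp for B6 females, 1499 bp for CAST males and 1533 bp for CAST females. The B6 female list was the widest because its promoter peak was 1651 bp wide and because it alone held a second peak of 261 bp, 1.42 kb into the gene.

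Sqle, the squalene epoxidase gene, had a broad, low promoter region and a distal region upstream with a higher fold enrichment. The promoter region (chr15:59145814-59148582) reached 3.70-fold for B6 males, 4.17-fold for B6 females, 3.32-fold for CAST males and 3.65-fold for CAST females. In each strain the female list was higher, and in each sex the B6 list was higher. The upstream region (chr15:59137894-59139091, between genes, starting at -8.74 kb) reached 5.10-fold, 5.64-fold, 7.14-fold and 5.82-fold in that order, so that it exceeded the promoter in all 4 lists. Ranked by peak score, the promoter was higher in both B6 lists, at the 84.6th against the 81.2nd percentile in males and the 89.5th against the 84.2nd in females. In both CAST lists the upstream region ranked higher. The upstream region covered 569 bp for B6 males, 835 bp for B6 females, 1164 bp for CAST males and 817 bp for CAST females. The CAST male list was the highest and widest there and the B6 male list the lowest and narrowest. The 2 other regions at Sqle were each in 1 list: 349 bp at 1.95-fold within the gene in CAST males, near the start of a retained-intron transcript, and 373 bp at 2.11-fold beyond its 3′ end, in an intron of E430025E21Rik, in B6 females. In total Sqle had 2994 bp for B6 males, 3623 bp for B6 females, 4223 bp for CAST males and 2944 bp for CAST females.

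Lss, the lanosterol synthase gene, had a promoter split into flanking regions. The region before the start (chr10:75993136-75994091) reached 4.84-fold for B6 males, 5.005-fold for B6 females, 5.32-fold for CAST males and 4.72-fold for CAST females. The region over the start (chr10:75994336-75995076) reached 5.96-fold, 6.07-fold, 6.48-fold and 7.15-fold, with both CAST lists above both B6 lists. A gap of 244 bp without a peak in any list separated them. Total coverage lay between 2096 bp in CAST females and 2309 bp in B6 males, the narrowest relative range of the 6 genes.

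Within Lss lay a pair of regions that both lists of a strain shared and both lists of the other strain lacked. They were the only such regions at the members with all peaks used and no merging across gaps. The B6 region (chr10:75999702-76000415, overlapping a non-coding exon of Lss) had 359 bp at 2.02-fold in males and 714 bp at 2.36-fold in females. The CAST region (chr10:76000581-76001324, overlapping a coding exon) had 742 bp at 2.75-fold in males and 716 bp at 2.75-fold in females. The intervals lay 165 bp apart, the B6 male peak was the narrowest and lowest of the 4, and once peaks up to 500 bp apart were merged the pair became 1 region called in all 4 lists. The 200 bases around the summit of the B6 female peak and of the CAST male peak are shown so that the neighbouring positions can be compared. They are the mm9 reference for both strains, and capitals would mark the motifs searched in the promoters, of which neither stretch held a match. The summit stretch of the B6 male peak in the B6 region, not shown, held 1 match to CCAAT, and that of the CAST female peak in the CAST region held 0.
Lss, B6 female summit, mm9 chr10:75999993-76000192, plus strand: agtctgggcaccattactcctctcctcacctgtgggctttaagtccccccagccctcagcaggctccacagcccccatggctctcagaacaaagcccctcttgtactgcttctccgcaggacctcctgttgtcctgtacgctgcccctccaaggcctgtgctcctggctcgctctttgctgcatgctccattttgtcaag
Lss, CAST male summit, mm9 chr10:76000655-76000854, plus strand: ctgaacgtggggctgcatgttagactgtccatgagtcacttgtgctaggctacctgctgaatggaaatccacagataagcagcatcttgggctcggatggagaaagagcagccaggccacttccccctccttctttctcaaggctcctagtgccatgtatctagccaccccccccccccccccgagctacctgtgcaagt
With peaks of −log10 q of at least 5 the B6 male peak was lost, so the B6 region was then in B6 females only, while the CAST region stayed in both CAST lists. Peaks of CAST mice were called on a strain-specific genome and moved to mm9 coordinates, and whether that step had a part in the offset was not tested.

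Cyp51, the lanosterol demethylase gene, had 1 region over its start (chr5:4103202-4105624) and a cluster of weaker regions towards its 3′ end. The promoter reached 5.86-fold for B6 males, 5.34-fold for B6 females, 7.10-fold for CAST males and 7.55-fold for CAST females, again with both CAST lists above both B6 lists. Of the distal regions, 4 lay between 20.5 and 24.5 kb from the start, at the end of the gene and just beyond it. The strongest of these (chr5:4080236-4081041) was in all 4 lists, at 3.34-fold, 2.84-fold, 3.51-fold and 3.96-fold in that order. Total coverage was 5807 bp for B6 males, 4429 bp for B6 females, 4531 bp for CAST males and 4236 bp for CAST females, with the B6 male list above the others.

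A Cyp51 intron held a region called in males only in both strains (chr5:4089048-4090627). It accounted for 1580 bp of the B6 male coverage at 2.58-fold, and for 218 bp of the CAST male coverage at 2.02-fold. Ranked by peak score, the B6 male peak stood at the 46.9th percentile of its list and the CAST male peak at the 7.83rd. By that score the CAST call was among the weakest of its list. Both females had 0 peaks there. The 200 bases around the B6 male summit are shown as the site of the longest male-only peak at the members. No match to the promoter motifs was found in them, and the stretch around the CAST male summit, not shown, held 1 match to CCAAT.
Cyp51, B6 male summit, mm9 chr5:4089080-4089279, plus strand: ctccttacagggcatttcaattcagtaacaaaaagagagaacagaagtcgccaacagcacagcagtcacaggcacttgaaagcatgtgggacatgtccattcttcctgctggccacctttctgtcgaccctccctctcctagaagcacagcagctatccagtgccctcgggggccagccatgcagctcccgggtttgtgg
The other region called in males only in both strains lay downstream of Insig1 (chr5:28408842-28409321, between genes), with 401 bp at 2.27-fold in B6 males and 480 bp at 2.005-fold in CAST males. Together 2 of 40 regions were male-only in both strains, against 2.35% of all regions, and 0 of 40 were female-only in both, against 1.23%. When peaks up to 500 bp apart were merged, the Insig1 region joined a neighbour present in all lists, whereas the Cyp51 region stayed male-only. With peaks of −log10 q of at least 5 neither region kept its CAST male peak, so both were called in B6 males only. At that limit 1 of 32 regions was male-only in both strains, a different one beyond the 3′ end of Cyp51 (chr5:4076499-4076879), against 2.41% of all regions.

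Srebf2, the gene of SREBP-2, had the most regions and the largest covered length, over the longest gene body (58.1 kb). Of its 14 regions, 6 were called in all lists. A region before the start (chr15:81976365-81977443) and a region over it (chr15:81977678-81979144) were separated by 234 bp. The region over the start reached 3.86-fold for B6 males, 4.01-fold for B6 females, 3.90-fold for CAST males and 3.51-fold for CAST females, a range in which the groups were interleaved. Distal regions in an intron (chr15:82013446-82015115) and just beyond the 3′ end (chr15:82035883-82038107) were about as high as the promoter. The intronic region gave 3.98-fold, 3.85-fold, 3.77-fold and 3.58-fold, and the region beyond the end 3.93-fold, 3.90-fold, 3.42-fold and 3.56-fold. Both were higher in the B6 lists than in the CAST list of the same sex.

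Other parts of Srebf2 were called unevenly. A region 18.3 kb into the gene (chr15:81995980-81997667) covered 1647 bp at 2.47-fold in B6 males, 1543 bp at 2.79-fold in B6 females and 556 bp at 2.03-fold in CAST males, with 0 bp in CAST females. The region at Mir33 (chr15:82029404-82030906), a microRNA gene within Srebf2, had 1011 bp in B6 males, 983 bp in CAST males and 1217 bp in CAST females, at 2.27-fold, 2.70-fold and 2.65-fold, and was not called in B6 females. Total coverage was 10584 bp for B6 males, 9205 bp for B6 females, 10514 bp for CAST males and 9030 bp for CAST females. The male list was 1.15-fold longer in B6 and 1.16-fold longer in CAST, but in B6 the log2 ratio went from 0.20 to -0.02 with peaks of −log10 q of at least 5. Between strains the log2 ratio of B6 over CAST was 0.01 in males and 0.03 in females, and neither kept its direction: over the alternatives it ran from -0.09 to 0.13 in males and from -0.14 to 0.04 in females.

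Insig1, which encodes the sterol-dependent anchor of the SREBP precursor, had low, wide promoter regions that flanked its start. They were separated by 364 bp (chr5:28396580-28397582 and chr5:28397947-28400365), and the upstream one overlaps a non-coding exon of Gm16719, whose start lies in the same window, so the mark cannot be divided between these genes. The highest fold was 3.23 for B6 males, 3.11 for B6 females, 3.93 for CAST males and 3.93 for CAST females. Both CAST lists were above both B6 lists, and the CAST values were equal at this rounding. Promoter coverage was 2934 bp, 3353 bp, 2872 bp and 2543 bp in that order.

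Insig1 was the only member whose total coverage differed by at least 1.5-fold in any of the 4 comparisons in the main setting, and that difference rested on the window edge. Its coverage was 4071 bp for B6 males, 5067 bp for B6 females, 5476 bp for CAST males and 3392 bp for CAST females, which made the CAST male list 1.61-fold higher than the CAST female list. An upstream region (chr5:28386852-28388117) was present in all 4 lists, at 3.45-fold, 3.71-fold, 4.13-fold and 3.65-fold in that order. Only the CAST male peak, 1251 bp wide, reached into the window, by 166 bp, whereas the peaks of the other lists ended between 12 and 94 bp short of it. Among the 40 regions it is counted as called in all 4 lists. Counting that region in every list lowered the log2 ratio from 0.69 to 0.33, and clipping peaks to the window lowered it to 0.37, both under the threshold of 1.5-fold. In B6 the sexes differed in the other direction, with the female list 1.24-fold higher. The B6 female list alone held a region at -5.32 kb (743 bp) and another 7.63 kb past the start (653 bp). When peaks up to 500 bp apart were merged, the latter joined a neighbour called in B6 males and CAST females.

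The counts of members past 1.5-fold were compared with those of all protein-coding gene windows that had peaks in both lists. Between the B6 sexes 0 of 6 were past it, against 5.40% of windows higher in males and 4.02% higher in females. Between the CAST sexes 1 of 6 (Insig1) was higher in males, against 8.79%, and 0 of 6 in females, against 2.27%. Between the males of the strains 0 of 6 were past it, against 5.24% higher in B6 and 9.32% higher in CAST, and between the females 0 of 6, against 10.2% and 8.55%. With a lower limit of 25% the B6 sexes gave 1 of 6 higher in males (14.8% of windows) and 1 of 6 in females (9.62%), and the CAST sexes 2 of 6 in males (22.7%) and 0 of 6 in females (5.89%). At that limit 1 of 6 was higher in B6 males (12.9%) and 2 of 6 in CAST males (18.3%), and 1 of 6 in B6 females (21.4%) and 0 of 6 in CAST females (16.6%). Members shared 63.1% of the bases covered in either B6 sex (64.3% over the genome), 66.6% between the CAST sexes (63.7%), 61.5% between males (60.1%) and 56.4% between females (54.1%). Ranked among all gene windows, the covered-base ratios of the members ran from the 8.34th percentile (Idi1 between the B6 sexes) to the 93.6th (Insig1 between the CAST sexes). Not all of these ratios kept their direction. Between the B6 sexes the log2 ratio of Idi1 was 0.20 in place of -0.36 with 25 kb on each side. That of Sqle was 0.33 in place of -0.28 with the gene body only.

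Covered bases were then split into own promoters and distal regions, with ratios past 1.5-fold counted in either direction. At own promoters 0 of 6 members were past it in each comparison, against 6.99% of windows between the B6 sexes, 7.98% between the CAST sexes, 9.31% between males and 12.4% between females. The largest promoter ratio was that of Sqle in CAST, with 3059 bp in males and 2127 bp in females. The male value includes the weak 349 bp peak within the gene, and the region over the start alone had 2710 bp in CAST males. In distal regions 3 of the 5 genes with distal peaks were past it between the B6 sexes, against 25.0% of windows, and 1 of 5 between the CAST sexes, against 27.3%. Between males it was 2 of 5, against 29.1%, and between females 1 of 5, against 34.9%. Distal ratios past 1.5-fold were thus common in all windows. In B6 these were Sqle (569 bp in males, 1208 bp in females), Insig1 (1137 bp and 1714 bp) and Cyp51 (3764 bp and 2006 bp). In CAST it was Insig1 (2604 bp in males, 849 bp in females). Between strains Sqle differed in males (569 bp in B6, 1164 bp in CAST), and Insig1 in males (1137 bp and 2604 bp) and in females (1714 bp and 849 bp). Both Insig1 ratios that involve the CAST males include the edge peak. Without that region the CAST male value was 1353 bp, and with it counted in every list the values were 2144 bp for B6 males, 2793 bp for B6 females, 2604 bp for CAST males and 1815 bp for CAST females. The 7 of 20 distal ratios past 1.5-fold became 6 of 20 without the region, 4 of 20 with it counted in every list, 8 of 20 with lists cut to equal length and 5 of 16 with peaks of −log10 q of at least 5. With the last of these Sqle in B6 was no longer past 1.5-fold (569 bp in males, 835 bp in females), and the B6 female value of Cyp51 fell to 629 bp. The shares of all windows past 1.5-fold are given for the main setting only. No gene passed 1.5-fold in the same direction in both strains or in both sexes.

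Promoter fold enrichment was higher in CAST than in B6 in both sexes at Idi1, Insig1, Cyp51 and Lss. The CAST over B6 ratio in males and in females was 1.37 and 1.27 at Idi1, 1.22 and 1.27 at Insig1, 1.21 and 1.42 at Cyp51, and 1.09 and 1.18 at Lss. Sqle went the other way in both sexes, at 0.896 and 0.877. Srebf2 was 1.01 in males and 0.874 in females. Over 12883 promoters with a peak in all 4 lists the median CAST over B6 ratio was 1.08 in males and 0.980 in females. The share of these promoters that were higher in CAST in both sexes is not given here. Idi1, Insig1, Cyp51 and Lss stood above the median promoter in both sexes, Lss in males only slightly.

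The size of these strain ratios was read against all promoters. In females Cyp51, Idi1 and Insig1 were at least 25% higher in CAST (3 of 6), against 5.30% of promoters, and in males Idi1 alone was (1 of 6), against 11.2%. The limit of 25% was chosen after the values were seen. The difference between females was not confined to the members. Every marker gene described below with a promoter peak in all 4 lists was also higher in CAST females than in B6 females. Hnf4a (2.69-fold in B6, 5.31-fold in CAST), Gfap (2.34-fold and 4.09-fold) and Kdr (2.28-fold and 3.05-fold) were past the same limit, and the other such markers were not. With the B6 over CAST ratio ranked over all promoters, Cyp51 stood at the 2.04th percentile, Idi1 at the 4.67th and Insig1 at the 4.72nd in females, and Idi1 at the 3.72nd in males. With fold enrichment averaged over peak width in place of its maximum, 2 of 6 in females were past that limit, against 6.18% of promoters, and 1 of 6 in males, against 11.5%, and the log2 ratio of Insig1 (B6 over CAST) moved from -0.34 to -0.10. The strains were aligned to different genomes and called against different inputs, and the part of these steps in the ratios was not tested.

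**Figure D3:**
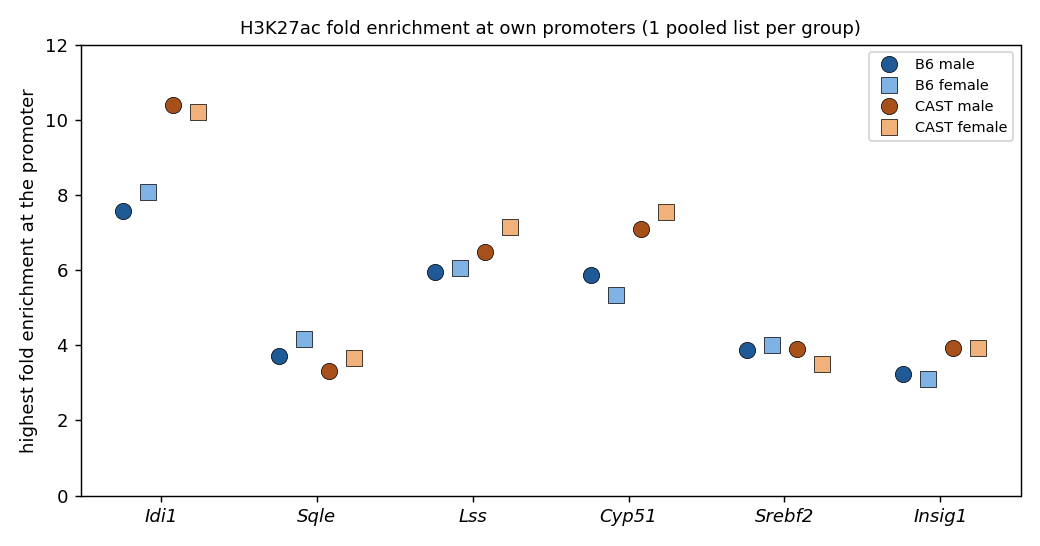
Highest fold enrichment over background (y axis, linear) among peaks at the promoter of each gene (x axis), 1 point per pooled list, with circles for males and squares for females. Both CAST points sit above both B6 points at Idi1, Lss, Cyp51 and Insig1, with the widest separation at Idi1 (7.58 and 8.07 in B6, 10.4 and 10.2 in CAST).

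Sex differences in promoter fold enrichment were smaller. In B6 the male over female ratio ran from 0.889 at Sqle to 1.10 at Cyp51, with a median over the members of 0.973, against 0.984 over all promoters. In CAST it ran from 0.907 at Lss to 1.11 at Srebf2, with a median of 0.969, against 1.09 over all promoters. Thus 5 of the 6 members were lower in that ratio than the median CAST promoter, Srebf2 (59.3rd percentile) being the exception. Lss stood at the 5.40th percentile, Sqle at the 5.53rd and Cyp51 at the 9.45th. The value of Lss came from the region over its start, whereas its region before the start was higher in CAST males than in CAST females, and averaged over peak width its log2 ratio was -0.01 in place of -0.14. With fold enrichment averaged over peak width the members' median log2 ratio was 0.01 in place of -0.05, and 5 of 6 were still below the median of all promoters, which was 0.11. Sqle and Lss had the higher value in females of both strains, by 1.12-fold in B6 and 1.10-fold in CAST at Sqle and by 1.02-fold and 1.10-fold at Lss.

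**Figure D4:**
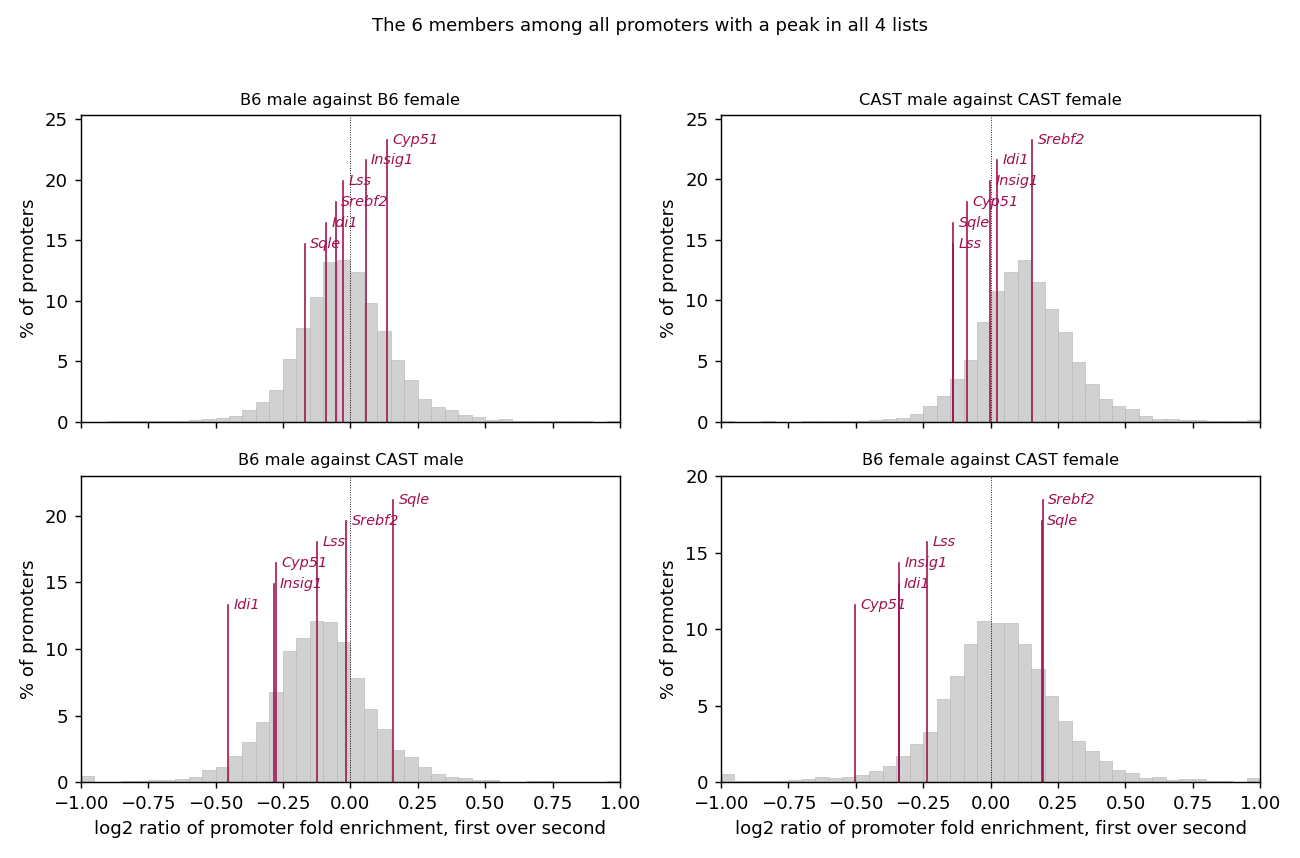
Distribution of the log2 ratio of promoter fold enrichment (x axis) over 12883 promoters with a peak in all 4 lists (grey, % of promoters; the end bars hold all values beyond the axis), with the 6 members as lines. In the comparison of B6 and CAST females Cyp51, Idi1 and Insig1 lie in the left tail, between -0.50 and -0.34, while in both sex comparisons the members lie between -0.17 and 0.16.

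Calls made in 1 sex only were counted next. In B6, 13 of 35 regions were in 1 sex only (37.1%, 23.2 to 53.7, against 34.9% of all regions): 7 in males (17.4% over all regions) and 6 in females (17.5%). In CAST, 9 of 33 were in 1 sex only (27.3%, 15.1 to 44.2, against 35.5%), with 7 in males (21.5%) and 2 in females (14.1%). With peaks of −log10 q of at least 5 the CAST share was 3 of 24 (12.5%, against 30.3%), outside that interval. Own promoters contributed 1 of the 13 and 1 of the 9, which were the weak peaks within Idi1 and Sqle described above. By class, 1 of 10 own promoter regions and 11 of 24 distal regions were in 1 sex only in B6, against 19.1% of regions near any start and 40.7% of distal regions, and in CAST 1 of 10 and 8 of 22, against 19.4% and 41.3%. Strain-only calls were 2 of 27 (7.41%, 2.06 to 23.4, against 16.8%), the Lss pair, with 1 region in B6 (6.78% over all) and 1 in CAST (10.0%). With peaks of −log10 q of at least 5 the strain-only calls were 4 of 23 (17.4%, against 16.1%), namely 2 regions at Srebf2, 1 at Insig1 and the CAST region of Lss. With all peaks used, every interval included the share of all regions.

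The other genes of the pathway were counted in the same way, against the percentages of all windows given above. A list of 30 other genes, made up of 17 synthesis enzymes, 5 regulators of SREBP and 8 genes of sterol uptake and trafficking, had 29 with peaks in the lists of each comparison. Covered bases were at least 1.5-fold higher in males for 1 of 29 and in females for 0 of 29 in B6, and for 1 and 1 of 29 in CAST. Between males 1 of 29 was higher in B6 and 3 of 29 in CAST, and between females 1 and 1 of 29. Nsdhl, an X-linked enzyme of sterol demethylation, was the only one past the threshold in the same direction in both sexes. It had 2086 bp for B6 males, 1506 bp for B6 females, 3532 bp for CAST males and 4098 bp for CAST females, which is 1.69-fold higher in CAST males and 2.72-fold higher in CAST females than in B6 of the same sex. The percentages above are for single comparisons, and the share of all windows that meet this joint rule is not given here. Among the 16 other synthesis enzymes with a promoter in all 4 lists, the median log2 ratio of B6 females over CAST females in promoter fold was 0.02, and that of the 6 members was -0.29. With fold enrichment averaged over peak width these medians were 0.07 and -0.09. In males the medians of the highest fold were -0.18 and -0.20.

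The tissue was checked through promoters of marker genes. All 5 hepatocyte markers (Alb, Ttr, Apoa1, Hnf4a and Cps1) had promoter peaks in all 4 lists, as did all 3 endothelial markers (Pecam1, Kdr and Stab2). None of the 3 Kupffer cell, 3 stellate cell or 2 T cell markers had them in all 4, although the stellate marker Col1a1 had them in 3, and 1 of 3 cholangiocyte markers (Epcam) did. Of 3 genes of other tissues, 1 (Gfap) had peaks in all lists. In whole liver a change in the share of a cell type and a change of the mark per cell cannot be told apart.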

How the data were processed

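H3K27ac ChIP-seq of 20 livers and 4 inputs was available as 4 peak lists, each pooled over 5 livers. As the study describes, the authors aligned B6 reads to mm9 with Bowtie2 and CAST reads to a CAST genome whose coordinates were converted to mm9, called peaks with MACS2 against input and removed artefact regions. The deposited columns were a score, a fold enrichment (ratio), the −log10 p-value and the −log10 q-value per peak. The score was used only to rank peaks within a list, which gave the percentiles of single peaks. The lowest −log10 q-value was 1.30 to 1.32. Fold enrichment was used as deposited, and differences between lists in depth or input enter it. Covered bases count whole peaks that overlap a window. Overlaps, union regions (autosomes and X) and motif searches were computed in Python 3.11.15 with pandas 2.3.3 and numpy 2.4.6, with code tested on simulated data. The annotation was GENCODE vM1 on NCBIM37 (mm9). Members and gene lists were chosen with earlier results of these data known. Named were all members, regions called in the same 1 sex in both strains or in both sexes of 1 strain, and other pathway genes past 1.5-fold in the same direction in both strains or both sexes.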

Additional observations from a re-analysis of the deposited data

How the results depend on the processing

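No paired analysis was possible because each list pools its 5 livers, and for the same reason no liver could be left out. The share of regions in all 4 lists, of sex-only regions in B6 and of strain-only regions stayed inside their intervals under every alternative, although the strain-only share rose from 7.41% to 17.4% with peaks of −log10 q of at least 5. The CAST sex-only share was 12.5% (3 of 24) at that limit, outside its interval. The count of members past 1.5-fold between the CAST sexes was 0 in place of 1 with 5 kb or 25 kb on each side, the gene body only, clipped peaks, coverage divided by that of the list, a 2-fold threshold or, chosen after seeing the data, whole regions at the window edge. It was 1 in place of 0 between the females of the strains with 25 kb on each side, −log10 q of at least 5 or equal list lengths. Between the B6 sexes it was 1 in place of 0 with −log10 q of at least 5, namely Cyp51, higher in males. With a threshold of 25% in place of 1.5-fold the counts over both directions were 2 between the B6 sexes, 2 between the CAST sexes, 3 between males and 1 between females. Over 8 alternatives the log2 ratio of Insig1 in CAST ran from 0.22 to 0.89 and was past the threshold in 2. Over the 7 or 8 alternatives run for each, 5 or 6 of them chosen after seeing the data, the 7 distal ratios past 1.5-fold kept their sign. The male strain ratio of Insig1 stayed past the threshold in 4 of 8, and its log2 value ran from -1.20 to -0.14. Sequencing depth was not used here. A peak missing from a list was not detected there, which does not show that the mark was absent.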
